A study of Mus musculus with 8 samples.

Results

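The genes described here are 10 markers of epithelial, mesothelial and epicardial cells: the keratins Krt5, Krt7, Krt8, Krt14, Krt18 and Krt19, the adhesion proteins Cdh1 and Epcam, the transcription factor Wt1 and the uroplakin Upk3b. They were taken by symbol from the 3 deposited comparison tables, where each of the 10 has 1 row among 50600 genes. The cells were C57BL/6 mouse embryonic fibroblasts, and all carried retroviruses for the GHMT factors, Gata4, Hand2, Mef2c and Tbx5, which push fibroblasts towards heart muscle. They were kept in StemPro-34 SFM and treated for 7 days with 0.1% ethanol, 1% DMSO, 5 µM I-CBP112, a ligand of the CBP and p300 bromodomains, or 5 µM C646, an inhibitor of their acetyltransferase activity. The 8 libraries comprise 2 for each treatment. A group without GHMT, or without any additive, is not analysed here. No source used here names the liquid in which either inhibitor was dissolved, so inhibitor and solvent cannot be told apart. What the number of a library stands for is likewise not stated there.

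Keratins are the intermediate filament proteins of epithelia, and a filament pairs a type I with a type II chain. Krt8 (type II) and Krt18 (type I) are the partners of simple epithelia, Krt5 and Krt14 those of the basal layer of the epidermis, and Krt7 and Krt19 are found in ducts and in mesothelium. Cdh1 (E-cadherin) and Epcam hold epithelial cells together. Wt1 and Upk3b mark the mesothelium and the epicardium, the cell sheets that cover the body cavities and the heart.

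The tables hold a mean over all 8 libraries, the fold changes and their standard errors, and no value of a single library. Levels by treatment were therefore rebuilt from the mean and the 3 fold changes, on the scale of normalised counts. The range after each level is 1 standard error (SE) to either side. Whether such ranges overlap is a description and not a test. The summed mean over genes was 37997801 normalised counts. The reference is not named in the tables and is read as ethanol, the group with no table of its own. Where nothing says that 2 libraries came from separate cultures, the tests measure only the spread between these libraries. A gene was called changed at an adjusted p below 0.05.

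The members differed widely in abundance. Upk3b had a mean normalised count of 1538, Krt7 of 331, Wt1 of 242 and Krt19 of 77.1, and Krt14 followed with 28.5. These 5 lay above 26.1, the lowest mean for which the DMSO and I-CBP112 tables give an adjusted p. Krt8 at 24.5 and Krt18 at 20.1 lay just below it, and Cdh1 at 4.80 came to about 38.4 counts over the 8 libraries. Krt14 passed 26.1 only through its levels with ethanol (55.1) and C646 (47.6). With DMSO and I-CBP112 it was at 5.28 and 5.86, so its place among the tested members, and in the counts below, rests on the groups where it was high. Epcam and Krt5, with about 4.19 and 4.26 counts in all, were at the edge of detection, so no level or fold is given for them by treatment. Means per kilobase of the principal transcript allow levels of different genes to be set side by side. They were 436 for Upk3b, 155 for Wt1, 81.0 for Krt7 and 48.9 for Krt19. Krt14 at 16.8, Krt18 at 14.0 and Krt8 at 12.5 lay close together, and Cdh1 was at 1.08. The principal transcript of Krt7 is long, at 4094 bases, and a shorter one would raise its value per kilobase. The adhesion proteins Cdh1 and Epcam and the basal keratin Krt5 were thus close to 0, while the mesothelial and epicardial markers Upk3b and Wt1 were measured well. The other keratins were above Cdh1, Epcam and Krt5, with means from 20.1 for Krt18 to 331 for Krt7. In bulk RNA, fewer cells of a type and less RNA per cell cannot be told apart.

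Promoter sequences are shown for 4 members: Krt7 and Upk3b, which were called higher with DMSO than with ethanol, and the filament partners Krt8 and Krt18, which are neighbours in the genome and whose rebuilt levels were lowest with I-CBP112 and with DMSO, respectively. They come from RefSeq (GRCm38.p6), 250 bases before to 50 after the annotated start, 5′ to 3′ along the gene; 7 of the 10 members matched, all but Krt19, Cdh1 and Wt1. Capitals mark matches on either strand to the TATA box TATAAA, the AP-1 site TGANTCA, the E-box CANNTG, the GC box GGGCGG and the GATA site AGATAA. The RefSeq start lies 1360 bases inside the start of the GENCODE gene for Krt7, 140 bases for Krt8, 36 bases for Krt18 and 0 for Upk3b, so the Krt7 window is not at the outermost start of its gene.
Krt7, chr15:101412153-101412452, plus strand: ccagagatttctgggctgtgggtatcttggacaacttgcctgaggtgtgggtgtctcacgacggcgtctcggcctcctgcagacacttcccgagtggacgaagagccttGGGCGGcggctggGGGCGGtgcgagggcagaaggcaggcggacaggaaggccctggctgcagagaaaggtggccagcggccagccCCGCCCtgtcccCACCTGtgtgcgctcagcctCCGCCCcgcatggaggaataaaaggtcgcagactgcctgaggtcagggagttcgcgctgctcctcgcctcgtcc
Upk3b, chr5:136038246-136038545, plus strand: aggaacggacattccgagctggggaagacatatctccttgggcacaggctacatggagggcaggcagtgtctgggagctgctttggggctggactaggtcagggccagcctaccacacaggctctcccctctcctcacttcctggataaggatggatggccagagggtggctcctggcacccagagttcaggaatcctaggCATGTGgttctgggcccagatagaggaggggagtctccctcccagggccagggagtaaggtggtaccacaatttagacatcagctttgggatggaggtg
Krt8, chr15:102004293-102004592, minus strand: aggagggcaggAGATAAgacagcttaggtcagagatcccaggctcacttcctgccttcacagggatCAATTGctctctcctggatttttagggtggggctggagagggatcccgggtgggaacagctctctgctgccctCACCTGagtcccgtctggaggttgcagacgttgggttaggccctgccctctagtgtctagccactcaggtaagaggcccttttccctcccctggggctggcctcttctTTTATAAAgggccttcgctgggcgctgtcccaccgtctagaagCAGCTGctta
Krt18, chr15:102027966-102028265, plus strand: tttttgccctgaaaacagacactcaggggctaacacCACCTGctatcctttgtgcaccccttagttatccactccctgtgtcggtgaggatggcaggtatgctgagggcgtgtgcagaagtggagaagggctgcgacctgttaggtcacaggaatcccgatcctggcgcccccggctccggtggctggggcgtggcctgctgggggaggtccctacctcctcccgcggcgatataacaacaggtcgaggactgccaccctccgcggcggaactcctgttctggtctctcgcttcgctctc

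Krt7 had 4 GC boxes in this window, and Upk3b, Krt8 and Krt18 had 0; of all 32851 promoters of this length 35.7% held at least 1. Krt8 held 2 overlapping matches to the TATA box (13.6% of all promoters held 1 or more) and 1 GATA site (11.2%). Each of the 4 had an E-box, as did 72.3% of all promoters, and 0 had an AP-1 site, which 7.81% had. These are matches of letters and do not show binding. The window given for Krt14 lies at the start of a non-coding transcript, 1518 bases inside the gene, and is not shown.

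**Figure D1:**
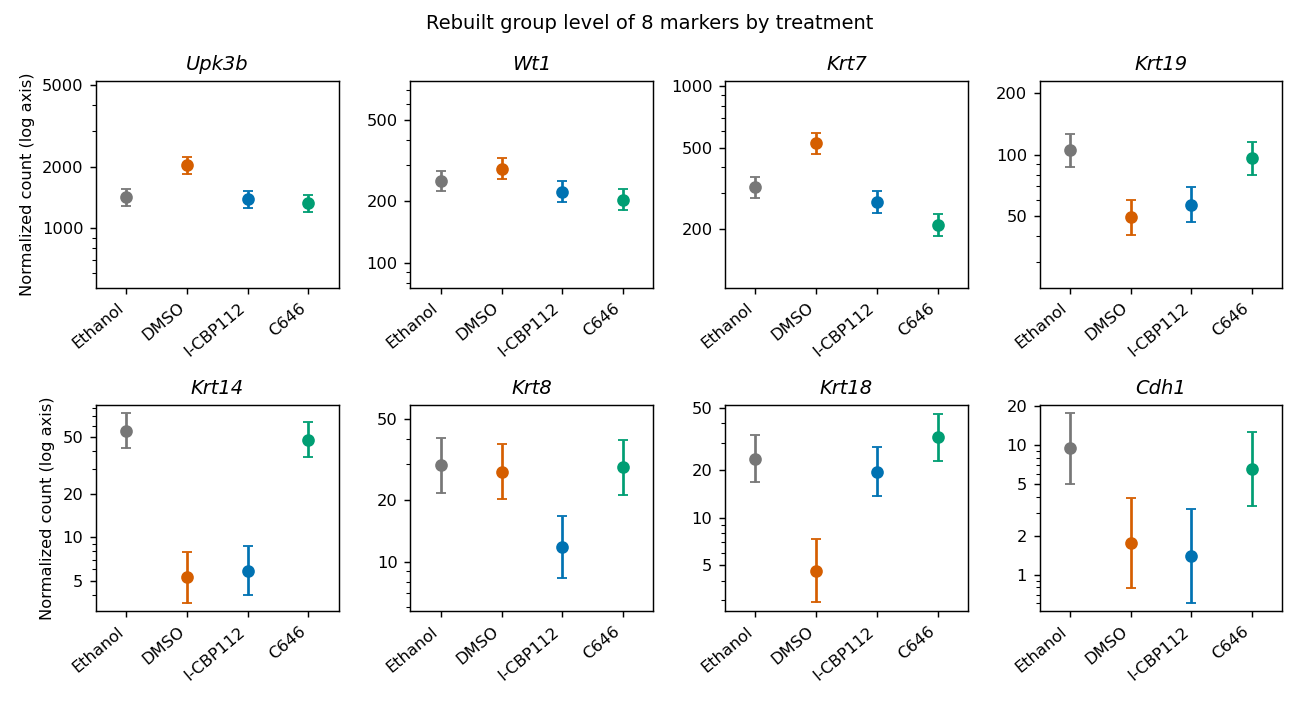
Rebuilt group level of 8 markers in normalised counts (vertical, log axis) for each treatment (horizontal); points are group levels over 2 libraries and bars are 1 SE to either side. Krt14 lay between 5.28 and 5.86 with DMSO and I-CBP112, against 47.6 to 55.1 with C646 and ethanol, and Krt7 and Upk3b were highest with DMSO.

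The first comparison asks what DMSO does to these genes. Of the 5 members with an adjusted p, Krt14 and Krt19 fell, Krt7 and Upk3b rose, and Wt1 did not pass the test, so the set did not move in 1 direction. That is 4 of 5 members called, beside 16.0% of all 14830 tested genes (8.07% higher and 7.9% lower). Of the tested members described above as found in mesothelium or marking it, Krt7 and Upk3b rose, Krt19 fell and Wt1 was not called. The simple epithelial partners Krt8 and Krt18 have no adjusted p here and are not counted among them. Krt14, which fell, is a basal epidermal keratin.

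Krt14 (ENSMUSG00000045545.8, chromosome 11, 100203162 to 100207548, minus strand) had the largest change of the members called. Its level was 55.1 with ethanol (41.7 to 72.8), 5.28 with DMSO (3.53 to 7.91), 5.86 with I-CBP112 (3.96 to 8.67) and 47.6 with C646 (36.0 to 63.1). The DMSO and I-CBP112 levels thus stood together, well under the other two, and rest on about 10.6 and 11.7 counts over 2 libraries. In the authors' deposited table the DMSO change was -3.38 ± 0.72 on the log2 scale (adjusted p = 5.97e-05), a level 10.4 times lower. Of all tested genes, 99.9% had a smaller change in either direction in that comparison. Of the keratins most like it in sequence, Krt17 (89.4% identity where aligned) and Krt42 (85.4%) are listed at 0, and Krt16 (87.4%) had a mean of 0.570; how reads were shared among them was not tested.

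Krt19 (ENSMUSG00000020911.14, chromosome 11, 100140810 to 100148665, minus strand), a type I keratin with a short tail, had the same order of treatments as Krt14 between the 2 pairs but smaller distances. Its level was 105 with ethanol (87.6 to 127), 49.5 with DMSO (40.6 to 60.4), 57.1 with I-CBP112 (47.0 to 69.4) and 96.4 with C646 (80.1 to 116). The SE ranges of DMSO and I-CBP112 overlapped, as did those of ethanol and C646, and the pairs did not. Of the comparisons between the pairs, only DMSO against ethanol was called. In the authors' deposited table Krt19 fell by 1.09 ± 0.39 with DMSO (adjusted p = 0.0376).

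Krt7 (ENSMUSG00000023039.16, chromosome 15, 101411043 to 101430313, plus strand), a type II keratin, went the other way. Its level was 319 with ethanol (283 to 360.1), 525 with DMSO (466 to 590), 272 with I-CBP112 (241 to 307) and 210.0 with C646 (186 to 238). DMSO stood above the other treatments with no overlap of SE ranges. The authors' deposited table gives 0.72 ± 0.24 for DMSO (adjusted p = 0.0251), 1.64 times the ethanol level. Upk3b (ENSMUSG00000042985.7, chromosome 5, 136038496 to 136046487, plus strand), a membrane protein of the uroplakin family, was also highest with DMSO, at 2028 (1843 to 2231). With ethanol it was 1412 (1283 to 1555), with I-CBP112 1386 (1259 to 1526) and with C646 1326 (1204 to 1459.8), 3 levels whose SE ranges overlap. The DMSO change in the authors' deposited table was 0.52 ± 0.20 (adjusted p = 0.0484). Wt1 (ENSMUSG00000016458.14, chromosome 2, 105126529 to 105173616, plus strand), a zinc finger factor of the developing epicardium and kidney, had a level of 251 with ethanol (223 to 282), 289 with DMSO (258 to 324), 222 with I-CBP112 (198 to 250.1) and 203 with C646 (181 to 229). Neighbouring SE ranges overlapped throughout. Its DMSO value in the authors' deposited table was 0.21 ± 0.23 (adjusted p = 0.650), with a 95% interval from -0.25 to 0.67.

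The partners Krt8 and Krt18 were too low for an adjusted p with DMSO or I-CBP112, so their levels are a description. They are neighbours on chromosome 15, their RefSeq starts 23874 bases apart on opposite strands (Krt8 101996698 to 102004482, minus; Krt18 102028180 to 102032027, plus). Krt18 had a level of 23.8 with ethanol (16.8 to 33.6), 4.63 with DMSO (2.94 to 7.30), 19.6 with I-CBP112 (13.8 to 27.9) and 32.3 with C646 (23.0 to 45.3). The SE range of Krt18 in DMSO did not overlap the others, and its level rests on about 9.27 counts over 2 libraries. Krt8 had 29.6 with ethanol (21.7 to 40.4), 27.6 with DMSO (20.2 to 37.7), 11.8 with I-CBP112 (8.31 to 16.7) and 29.0 with C646 (21.2 to 39.5). For Krt8 the I-CBP112 range did not overlap the others. Adjusted over all genes with counts, Krt8 with I-CBP112 was not called against any other treatment. The authors' deposited table gives no adjusted p for either gene with DMSO; its unadjusted values are p = 0.00429 for Krt18, at -2.36 ± 0.83, and p = 0.871 for Krt8, at -0.10 ± 0.63. When the p-values of the authors' deposited table were adjusted again over all genes with counts, Krt18 had an adjusted p of 0.0700. Per kilobase the ratio of Krt8 to Krt18 was 0.916 in the ethanol group, 4.37 in DMSO, 0.440 in I-CBP112 and 0.658 in C646; whether the 2 genes differ in their response was not tested. The pseudogene Krt8-ps, which matches Krt8 at 98.6% of 941 bases, is listed at 0.

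Cdh1 (ENSMUSG00000000303.12, chromosome 8, 106603351 to 106670246, plus strand) had 9.48 with ethanol, 6.58 with C646, 1.75 with DMSO and 1.39 with I-CBP112, the last 2 from about 3.51 and 2.79 counts over 2 libraries. The authors' deposited table has -2.44 ± 1.47 for DMSO, with an unadjusted p of 0.0977 and a 95% interval from -5.32 to 0.45, so a difference was not detectable at this depth.

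**Figure D2:**
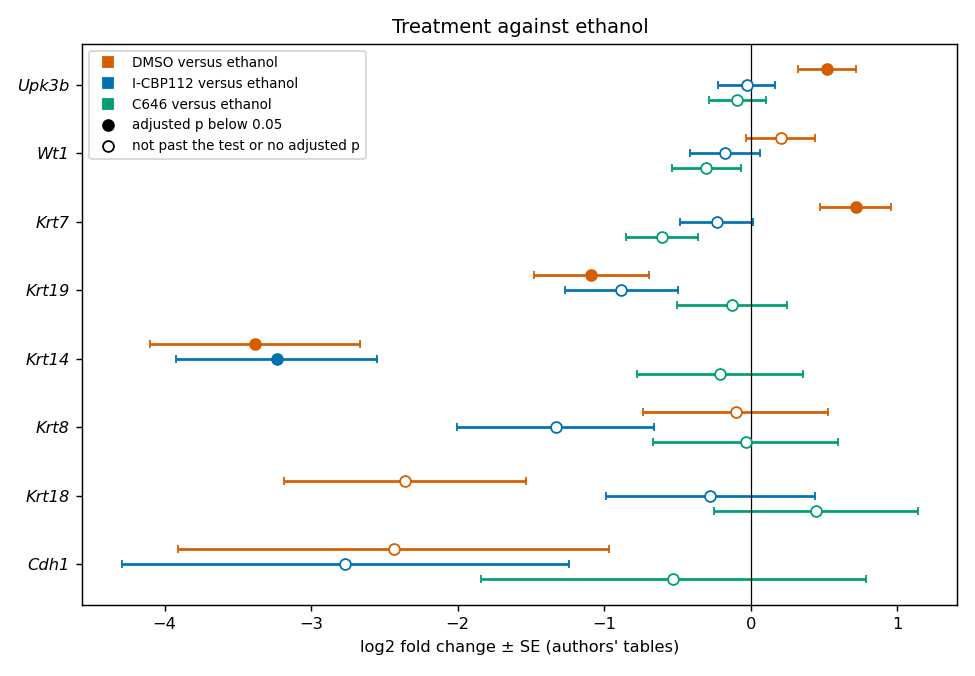
The authors' log2 fold change against ethanol (horizontal, bars are 1 SE) for 8 markers (rows) and 3 treatments (colours); filled points have an adjusted p below 0.05. Filled points are Krt14 with DMSO and I-CBP112 and Krt19, Krt7 and Upk3b with DMSO.

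Of these 4 calls, adjustment over all genes with counts leaves 1, Krt14, with adjusted p = 0.0566 for Krt7, 0.0842 for Krt19 and 0.108 for Upk3b; centring on the median gene ends the call of Upk3b (adjusted p = 0.0733). Replacing the normal by a t distribution (4 degrees of freedom) leaves 0 of the 4 (adjusted p = 0.217 for Krt14). The share of all genes called under these settings was not computed.

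The second comparison asks what I-CBP112 does to the same genes. Krt14 alone of the 5 members with an adjusted p was called, and it was lower; over all tested genes 9.9% were called (4.65% higher and 5.25% lower). In the authors' deposited table it fell by 3.23 ± 0.69 on the log2 scale (adjusted p = 8.84e-05), a level 9.41 times lower than with ethanol. For Krt19 the authors' deposited table has -0.88 ± 0.39 (adjusted p = 0.149), for Krt7 -0.23 ± 0.25 (adjusted p = 0.736), for Wt1 -0.17 ± 0.24 (adjusted p = 0.818) and for Upk3b -0.03 ± 0.20 (adjusted p = 0.978). The 95% interval of Upk3b ran from -0.41 to 0.36 and that of Wt1 from -0.64 to 0.29. Krt8, without an adjusted p, was at -1.33 ± 0.67 in the authors' deposited table (unadjusted p = 0.0485; adjusted p = 0.551 over all genes with counts). Krt18 was at -0.27 ± 0.71 and Cdh1 at -2.77 ± 1.52 (unadjusted p = 0.0695) in the authors' deposited table. With the t distribution the Krt14 call is lost (adjusted p = 0.330).

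The third comparison asks the same of C646. All 10 members have an adjusted p in that table, and by the authors' DESeq2 test 0 were called, beside 0.00584% of 34250 genes (0.00292% higher and 0.00292% lower). At an unadjusted p below 0.05 there was 1, Krt7, at -0.60 ± 0.25 in the authors' deposited table (p = 0.0146, adjusted p = 1). Of the 34250 genes in that table, 0.581% had an unadjusted p below 0.05. With no change at all, well-scaled p-values would put a share of 0.05 of genes there. The p-values of this table thus run high, and 0 calls do not show that nothing changed. Of the 14830 genes with an adjusted p in the other tables, 98.1% had a smaller change than Krt7. Among the other 4 of the 5 more abundant members, Wt1 at -0.30 ± 0.24 and Krt14 at -0.21 ± 0.56 lay furthest from 0 in the authors' deposited table. Krt18 was at 0.44 ± 0.70 and Cdh1 at -0.53 ± 1.31 in the authors' deposited table, with adjusted p = 1 for all of these. The 95% interval for Krt14, from -1.32 to 0.90, does not reach the sizes seen with DMSO and I-CBP112.

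**Figure D3:**
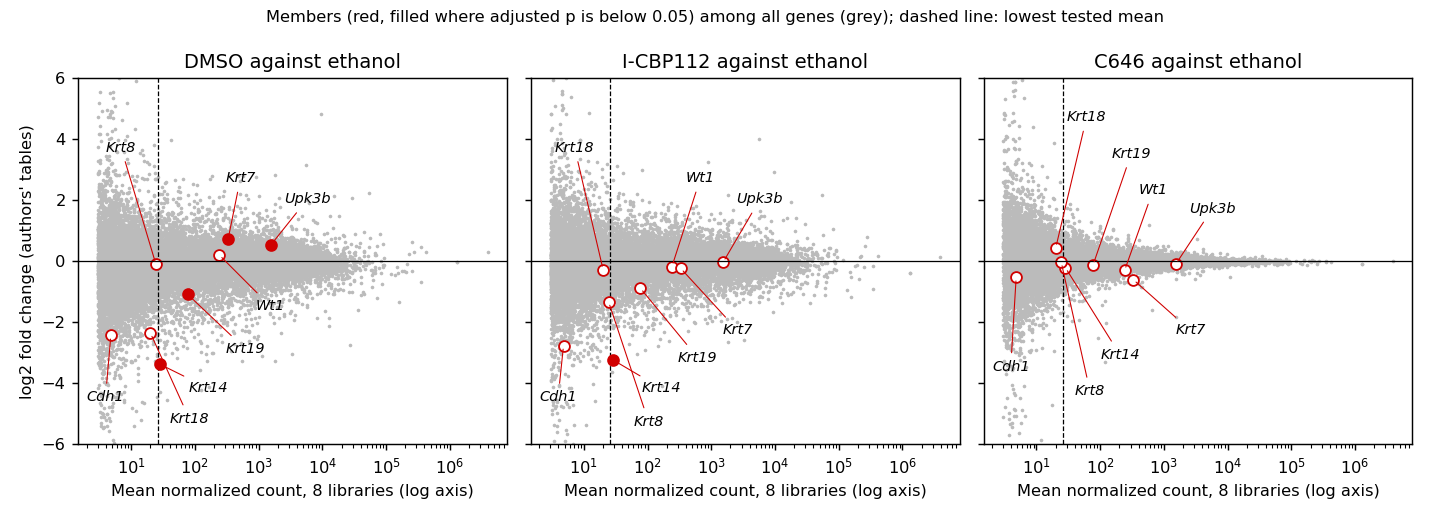
The authors' log2 fold change against ethanol (vertical) and mean normalised count over 8 libraries (horizontal, log axis) for genes with a mean of 3 or more (grey; any beyond 6 either way lie outside the panels) and 8 markers (red, filled where adjusted p is below 0.05), 1 panel per treatment. Krt14 lies at the lower edge with DMSO (-3.38) and I-CBP112 (-3.23) and near 0 with C646, and Krt8, Krt18 and Cdh1 lie left of the dashed line at 26.1, the lowest tested mean.

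The treatments were then set against each other, in 3 comparisons over the same 14830 genes, with the difference of 2 fold changes over an SE rebuilt to allow for their shared reference. I-CBP112 against DMSO had 1 of 5 members called, beside 6.95% of tested genes (4.29% higher and 2.66% lower). This was Krt7, lower with I-CBP112 by 0.95 ± 0.25 on the log2 scale (rebuilt fit, adjusted p = 0.00366), with a DMSO level 1.93 times as high. Upk3b went the same way at -0.55 ± 0.20, not past the threshold (rebuilt fit, adjusted p = 0.0640). For Krt14 the difference was 0.15 ± 0.82, with a 95% interval from -1.45 to 1.75, and for Krt19 it was 0.21 ± 0.40. Wt1 was at -0.38 ± 0.24 (rebuilt fit, adjusted p = 0.442). With the SE at its upper bound the Krt7 call is lost (adjusted p = 0.198).

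C646 against DMSO had 3 of 5 members called, beside 15.9% of tested genes (7.99% higher and 7.89% lower). Krt7 was lower with C646 by 1.32 ± 0.25 and Upk3b by 0.61 ± 0.20 (rebuilt fit, adjusted p = 0.0154 for Upk3b), and Krt14 was higher by 3.17 ± 0.72 (rebuilt fit, adjusted p = 0.000189). The adjusted p of Krt7 was 2.39e-06, the smallest of any member here. Krt19 at 0.96 ± 0.39 (rebuilt fit, adjusted p = 0.0792) and Wt1 at -0.51 ± 0.24 (rebuilt fit, adjusted p = 0.141) were not past the test. Krt18, outside the tested genes, was 6.97 times as high with C646 as with DMSO, a difference of 2.80 ± 0.82, and was called when all genes with counts were adjusted together (rebuilt fit, adjusted p = 0.0146). With the SE at its upper bound the Upk3b call is lost (adjusted p = 0.238).

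C646 against I-CBP112 had 1 of 5 members called, beside 9.81% of tested genes (5.11% higher and 4.7% lower). Krt14 was 8.13 times as high with C646, a difference of 3.02 ± 0.68 (rebuilt fit, adjusted p = 0.000286). Krt19 at 0.75 ± 0.39, Krt7 at -0.37 ± 0.25, Wt1 at -0.13 ± 0.24 and Upk3b at -0.06 ± 0.20 were not past the test. Krt8, outside the tested genes, was at 1.30 ± 0.67 (rebuilt fit, adjusted p = 0.586 over all genes with counts). With the t distribution, 0 of the 5 calls between treatments among the tested members (Krt7, Upk3b and Krt14) held; the Krt18 value was not recomputed that way.

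**Figure D4:**
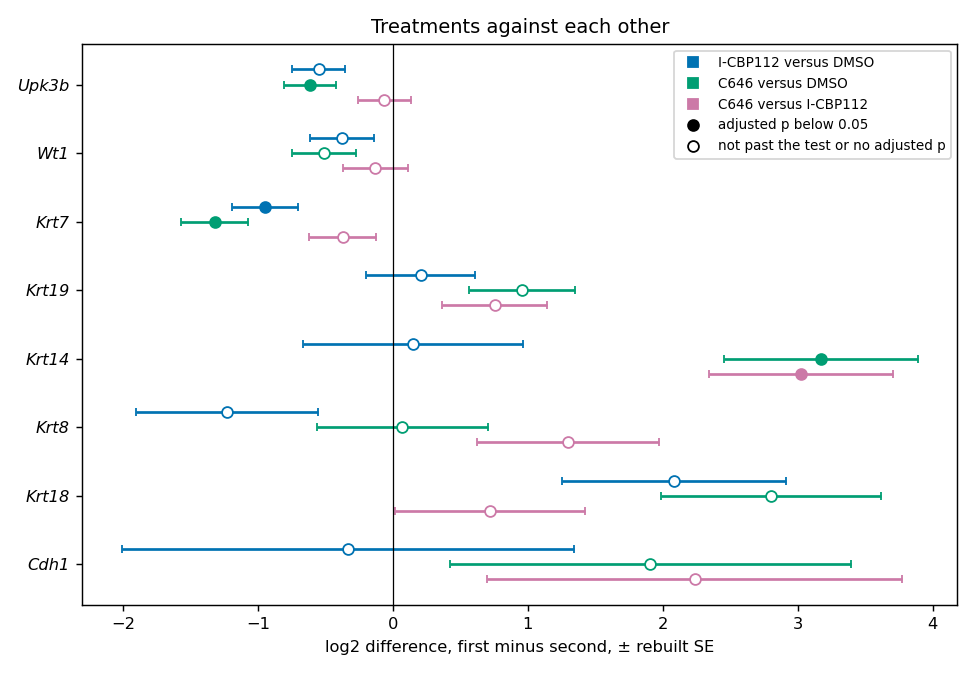
Log2 difference between treatments, first minus second (horizontal, bars are 1 rebuilt SE), for 8 markers (rows); filled points have an adjusted p below 0.05. Krt7 is lower with both inhibitors than with DMSO, at -0.95 and -1.32, and Krt14 is higher with C646 than with DMSO and I-CBP112, at 3.17 and 3.02.

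In order of level, Krt14 ran ethanol, C646, I-CBP112, DMSO, with the step between C646 and I-CBP112 past the test and its neighbours on either side not. Krt7 ran DMSO, ethanol, I-CBP112, C646, and only the first step passed. Upk3b ran in that same order, with the first step past the test at the authors' scaling. Krt19 ran ethanol, C646, I-CBP112, DMSO with no neighbouring step past the test, and Wt1 ran DMSO, ethanol, I-CBP112, C646, also with none.

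Other genes of these cell types were read from lists. Beside their counts, 8.07% of all tested genes were called higher and 7.9% lower with DMSO. With I-CBP112 the shares were 4.65% higher and 5.25% lower. With C646 the share was 0.00584% of 34250 genes in either direction, so 0 calls in a list are no result about its genes. No list was tested against these shares, and in a short list a single gene shifts the share widely. Of 48 other keratins, 26 had any counts and 3 were tested. Krt20, a keratin of gut and urothelium, had a level of 53.4 with ethanol, 59.4 with C646, 8.08 with DMSO and 20.9 with I-CBP112. Like Krt14, it passed the lowest tested mean only through its levels with ethanol and C646. Its place among the tested keratins thus rests on the groups where it was high. Krt20 was called lower with DMSO, at -2.73 ± 0.71 in the authors' deposited table (adjusted p = 0.00162). With I-CBP112 it was at -1.35 ± 0.65 in the authors' deposited table (adjusted p = 0.212). Krt10, a keratin of the upper epidermis, was at 0.08 and -0.01 and Krt222 at 1.03 and 1.11 in the same order in the authors' deposited table, neither of them called. The median of the 3 was 0.08 with DMSO and -0.01 with I-CBP112, beside 0.03 and 0.01 for all tested genes.

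Epicardial and mesothelial genes other than the members had 14 of 17 tested. With DMSO 5 fell and 1 rose, with a median of -0.35 beside 0.03 for all tested genes. With I-CBP112 7 fell and 0 rose, with a median of -0.39 beside 0.01. With C646 0 were called, beside 0.00584% of all 34250 genes. Those furthest from 0 with DMSO in the authors' deposited table were Lrrn4, a mesothelial membrane protein, at -1.03 ± 0.26, the retinaldehyde dehydrogenase Aldh1a1 at -0.94 ± 0.12 and Rspo1, a Wnt agonist, at 0.77 ± 0.29. With I-CBP112 they were the mucin Muc16 at -1.45 ± 0.40, Aldh1a2, which makes retinoic acid in the epicardium, at -1.06 ± 0.36 and Lrrn4 at -0.83 ± 0.26 in the authors' deposited table. Mesothelin (Msln) had -0.35 ± 0.13 and -0.37 ± 0.13 with DMSO and I-CBP112, and Bnc1 -0.71 ± 0.18 and -0.68 ± 0.18, with all 4 values called in the authors' deposited table. Upk3b and Rspo1 thus rose with DMSO, where Lrrn4, Aldh1a1, Msln, Bnc1 and Tgfb2 (-0.38 ± 0.14) fell. Several of these calls were close to the threshold in the authors' DESeq2 test. The adjusted p was 0.0484 for Upk3b, 0.0435 for Rspo1, 0.0410 for Msln and 0.0459 for Tgfb2. Genes of the lists were not recomputed under the other settings. Upk1b, the other abundant uroplakin, with a mean normalised count of 1564, was at 0.27 ± 0.14 with DMSO (adjusted p = 0.208) and fell by 0.40 ± 0.14 with I-CBP112 (adjusted p = 0.0451) in the authors' deposited table. Upk1b was also lower with I-CBP112 than with DMSO, by 0.67 ± 0.14 (rebuilt fit, adjusted p = 0.000130).

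Basal keratinocyte and desmosome genes had 15 of 20 tested, of which 3 rose and 0 fell with DMSO (median 0.05) and again 3 rose and 0 fell with I-CBP112 (median 0.14). Over all tested genes 16.0% were called with DMSO and 9.9% with I-CBP112, and the list was not tested against these shares. The integrin Itga6 was at 1.26 ± 0.16 and 1.18 ± 0.16 and desmoplakin (Dsp), which anchors intermediate filaments to desmosomes, at 0.76 ± 0.13 and 0.58 ± 0.13 in the authors' deposited table. The desmocollin Dsc2 was at 1.07 ± 0.29 with DMSO and the plakophilin Pkp2 at 0.34 ± 0.12 with I-CBP112 in the authors' deposited table; Dsp, Dsc2 and Pkp2 are also desmosome genes of heart muscle. Trp63, the regulator of the basal layer that drives Krt14 there, was at 0.05 and -0.46 with DMSO and I-CBP112 in the authors' deposited table, neither called.

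Among adherens junction partners, all 7 tested, 2 fell with DMSO, and 2 fell and 1 rose with I-CBP112. For this and the lists below, the shares called over all tested genes were 16.0% with DMSO and 9.9% with I-CBP112. P-cadherin (Cdh3) was at -1.27 ± 0.15 and -1.03 ± 0.15, cadherin 11 at -0.33 ± 0.12 and -0.60 ± 0.12 in the authors' deposited table, and with I-CBP112 beta-catenin (Ctnnb1) was at 0.38 ± 0.11. The authors' deposited table has N-cadherin (Cdh2) at 0.09 and 0.17, neither called. The medians of the 7 were -0.17 with DMSO and 0.09 with I-CBP112. Of 30 epithelial junction and regulator genes, 9 were tested; 2 fell with DMSO, Cdh3 and the claudin Cldn1 at -0.62 ± 0.19 in the authors' deposited table, and 1, Cdh3, with I-CBP112. The medians of the 9 were -0.25 and 0.07. Of 7 regulators of the mesenchymal state, 2 fell with DMSO, Prrx1 at -0.42 ± 0.12 and Zeb2 at -0.32 ± 0.11, and 1 with I-CBP112, Prrx1 at -0.61 ± 0.12, in the authors' deposited table. Snai1 was at -0.43 ± 0.22 and -0.63 ± 0.22 in the authors' deposited table, neither called. The medians of the 7 were -0.30 and -0.21. Among other intermediate filament genes and linkers, 2 of 11 fell with DMSO, vimentin (Vim) at -0.43 ± 0.12 and lamin A/C (Lmna) at -0.47 ± 0.13 in the authors' deposited table, and 1 with I-CBP112, Lmna at -0.39 ± 0.13. The medians of the 11 were -0.26 and -0.13. With C646, 0 of the genes in these lists were called by the authors' DESeq2 test, beside 0.00584% of all 34250 genes. The p-values of that comparison run high, so these 0 calls do not show that nothing changed.

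Markers of fibroblasts and heart muscle differed with the same treatments. With C646, 0 of any of these marker genes were called, beside 0.00584% of all 34250 genes. Of 10 fibroblast markers 8 fell with DMSO and 8 with I-CBP112. Their summed level was 868080 in the ethanol group, 554777 in DMSO, 461164 in I-CBP112 and 856174 in C646. Most of the fibroblast sum came from Col3a1 and Col1a2, at 442902 and 170260 with ethanol. Of 6 cardiac muscle markers all 6 rose with both DMSO and I-CBP112. Their summed level ran from 90253 with ethanol and 92750 with C646 to 241370 with DMSO and 252382 with I-CBP112. Most of the cardiac sum came from Tnnt2 and Myh6, at 54173 and 19485 with ethanol. Endothelial markers summed to between 578 and 1008 in the 4 groups, and of the 2 tested 1 fell with DMSO and 1 with I-CBP112. The sum came mostly from these 2, Kdr and Tek, at 525 and 451 with ethanol. Pecam1, Cdh5 and Emcn were low, at 14.9, 13.1 and 2.95 with ethanol, and were not tested. Leukocyte markers summed to between 2572 and 3272, mostly from Lyz2 (2132 with ethanol), and 2 of 5 fell with I-CBP112. The part of such shifts in the levels of the keratins was not tested. The antisense gene Wt1os starts beside Wt1 on the other strand and shares 0 bases with it in GENCODE M21.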

How the data were processed

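RNA of 8 libraries, 2 per treatment, was quantified by the authors with kallisto 0.43.1 on GRCm38.p5 and tested with DESeq2 (version not given in the sources used here), per the submitters' processing notes. The 3 deposited tables are the authors' comparisons. In them, per the file headers, baseMean is a signal, the authors' mean normalised count over 8 libraries (equal in the 3 tables for 50600 genes); the log2 fold change and its standard error are the authors'; the Wald statistic is the authors' score; the p-value and adjusted p-value are the authors'. The C646 table gives an adjusted p for 34250 genes and each other table for 14830. Groups come from the labels. The 10 members and the gene lists were chosen with earlier results of these data known.

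Here, group levels and 1 dispersion per gene were rebuilt from these values (numpy 2.4.6, scipy 1.17.1), which gave 98.9% to 99.0% of the deposited standard errors to within 1%, and within 1.61% for the 8 members with 24 or more counts. The rebuilt fit for 3 treatment pairs used a normal two-sided p with Benjamini-Hochberg adjustment over the 14830 genes. It was also run on simulated counts whose standard errors came from the same formula, with 1 dispersion shared by all genes. That run checks the arithmetic and cannot show how well the p-values hold with 2 libraries per group. The median standard error was 0.185, and 95% intervals are 1.96 standard errors. Named genes are the 10 members, up to 3 per list with the largest change past the test, copies of members, and nearest patterns. Others were chosen after their values were seen (Msln, Bnc1, Tgfb2, Upk1b, Trp63, Cdh2, Snai1, Krt10, Krt222). They are named to show a value that missed the test, to complete the calls of a list, or for their role. Copies were found with blastn 2.17.0 (at least 85% identity over 300 bases of GENCODE M21 transcripts). Alternatives were other scalings, filters, a t distribution and an upper bound of the standard error.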

Additional observations from a re-analysis of the deposited data

How the results depend on the processing

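No paired analysis was possible because the tables hold no values of single libraries; for the same reason the fits that leave out 1 library were not run. The count of members called with DMSO against ethanol was 4; it was 3 under both other scalings, 1 with no filter on low counts, 2 among genes with a mean of 100 or more, where Krt14 and Krt19 are left out, and 0 with a t distribution (4 degrees of freedom). With I-CBP112 against ethanol it was 1, and 0 with a mean of 100 or more or with the t distribution. With C646 against ethanol it was 0 in all settings, including adjustment over the genes kept in the other tables, chosen after seeing the data. For I-CBP112 against DMSO the count went from 1 to 0 with the t distribution and with the upper bound of the standard error. For C646 against DMSO it was 3, from 2 to 4 in the other settings and 0 with the t distribution. For C646 against I-CBP112 it went from 1 to 0 with a mean of 100 or more, which leaves out Krt14, and with the t distribution. The share of all genes called under each of these settings was not computed. Whether the counts moved more for the members than for other genes therefore cannot be told. Of the single values recomputed, called or not, 167 stayed on their side of the threshold, 17 lost a call, 1 gained one and 0 changed direction. Most of the 167 had not been called in the main setting, whereas the 17 come from called values alone. The tally therefore does not measure how well the calls held. Depth limits Krt14 with DMSO and I-CBP112 and Krt18 with DMSO, which rest on 9.27 to 11.7 counts over 2 libraries.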

Other observations

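The genes most like each tested member were sought by distance, on the log2 scale, between levels in the 4 treatments centred on their own mean, among genes whose mean normalised count was at least 100. For Krt14 these were Epyc, a cartilage proteoglycan, at a distance of 0.34, and the water channel Aqp1, at 0.46. In the authors' deposited table Epyc had -3.04 for DMSO, -2.78 for I-CBP112 and 0.10 for C646. For Krt19 they were Wisp1, at 0.03, and Itpripl1, at 0.06. In the authors' deposited table Wisp1 was at -1.06, -0.85 and -0.10 with the 3 treatments in the same order. For Krt7 they were Mov10l1 at 0.21 and the chromatin protein Hmgb2 at 0.23, for Wt1 Igip at 0.08 and Sap130 at 0.08, and for Upk3b Usp13 at 0.04 and Naaa at 0.04. The likeness is over 4 group levels that come from 8 libraries and is a description only.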
